A study of Homo sapiens with 4 samples.

Results

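The ephrins and Eph receptors described here are 10 genes: the ligand genes EFNA1, EFNB1 and EFNB2, the EphA receptor genes EPHA2 and EPHA4, and the EphB receptor genes EPHB1, EPHB2, EPHB3, EPHB4 and EPHB6. They were chosen by gene symbol, and each matched 1 of the 28285 rows in the expression tables. The cells were differentiated from H1, a human embryonic stem cell line in wide use. A knock-in at GATA2, which encodes a transcription factor of blood and endothelium, made them report its activity by a green fluorescent protein (eGFP). Cells carrying CD34 and CD31 and lacking CD43, a surface protein of blood cells, were sorted by the reporter. The GFP-positive fraction (2 libraries) was labelled hemogenic endothelium, a transient endothelium that gives rise to blood. The GFP-negative fraction (2 libraries) was labelled endothelial cells. Both fractions carried the reporter allele, and the titles of all 4 samples name Cre, without saying what it was used for. Source names give hemogenic endothelium for all 4 samples, so the labels differ on the GFP-negative cells.

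Eph receptors are receptor tyrosine kinases of the cell surface, and their ephrin ligands are also bound to membranes, so that signals pass between touching cells and in both directions. Ephrin-A ligands are held by a lipid anchor and bind mostly EphA receptors, while ephrin-B ligands cross the membrane, bind mostly EphB receptors and signal back into their own cell. In vascular development, studied mostly in the mouse, ephrin-B2 marks arterial endothelium and its preferred receptor EphB4 marks venous endothelium. Levels of these genes in the GFP-positive and GFP-negative fractions therefore bear on the arterial and venous identity of the sorted cells.

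Levels were given as TPM, a length-corrected and library-scaled share of all transcripts, which can be compared between genes. Between 14730 and 15109 genes reached 1 TPM in a library, and the number of reads behind a value is unknown, since TPM does not hold it. Whether the replicates were separate cultures is not stated, and p-values rest on the spread between these libraries, which may be technical. Transcripts of the endothelial cell type were abundant in both fractions: CDH5, the gene of VE-cadherin, had 329 and 314 TPM in GFP-positive libraries and 767 and 623 TPM in GFP-negative libraries. All 20 pan-endothelial markers on the list used were lower in both GFP-positive libraries, and 3 of them (CD34, MMRN2 and PLVAP) fell (limma, Benjamini-Hochberg adjusted p under 0.05); the list's median log2 fold change was -1.06. With a library left out, limma did not call MMRN2 in any of the 4 fits, called PLVAP only when GFP-negative replicate 2 was the one left out, and missed CD34 without replicate 1 of either fraction (adjusted p from 0.0501 to 0.117 where missed). Their summed level was 6471 and 6751 TPM in GFP-positive libraries, against 11984 and 10734 TPM in GFP-negative libraries. Blood cell markers summed to 684 and 535 TPM against 237 and 230 TPM, and of 20 tested 1, the fetal globin gene HBG2, rose. Of those 20, 10 were higher and 0 were lower at an unadjusted p under 0.05 (limma), with 14 above 0 and 6 below 0. The glycophorin gene GYPB, for example, had 110 and 72.4 TPM in GFP-positive libraries, against 31.0 and 32.4 TPM in GFP-negative libraries. PTPRC, the gene of the leukocyte surface protein CD45, had at most 1.84 TPM in GFP-positive libraries and at most 2.64 TPM in GFP-negative libraries, and the table value of the myeloid gene CD14 was 0 in both GFP-positive libraries. In such bulk samples fewer endothelial cells and less endothelial RNA per cell cannot be told apart.

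Most of the ephrin and Eph genes were expressed in both fractions, and the 3 ligand genes together with EPHB1 and EPHB4 were lower in both GFP-positive libraries than in either GFP-negative library. EPHB2, at a low level, was the reverse. EPHA2, EPHA4, EPHB3 and EPHB6 overlapped between the fractions. None of the 10 passed limma's test at an adjusted p of 0.05, against 0.447% of all 15425 genes tested, and 4 had an unadjusted p under 0.05, all of them lower in GFP-positive cells, against 7.38% of all genes. All 10 passed the filter on low values (at least 1 TPM in at least 2 libraries). Of the 10, 5 had separated groups with GFP-positive cells lower, against 21.5% of all genes, and 1 had them separated with GFP-positive cells higher, against 22.8% of all genes. Fold changes were below 0 for 8 members, against 48.2% of all genes. The median log2 fold change was -0.35 over the 10 members, -0.65 over the 3 ligands and -0.10 over the 7 receptors, against 0.02 over all genes tested. Fold changes are of log2(TPM + 1), a scale that understates changes of genes at a few TPM.

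**Figure D1:**
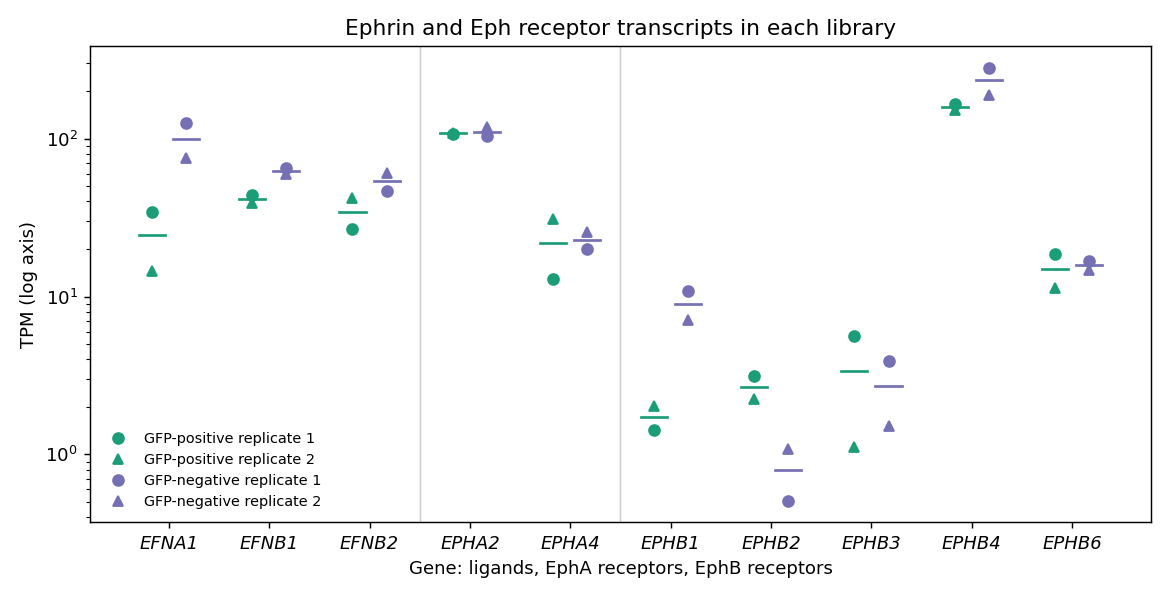
TPM of the 10 genes in each library on a log axis, with GFP-positive libraries (green) left of GFP-negative libraries (purple), circles for replicate 1, triangles for replicate 2 and a line at each mean. EFNA1, EFNB1, EFNB2, EPHB1 and EPHB4 have both GFP-positive libraries below both GFP-negative libraries, and EPHB2 has them above.

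EPHB4 stood highest in both fractions, followed by EPHA2. With a mean of 159 TPM in the GFP-positive and 236 TPM in the GFP-negative fraction, EPHB4 did not overlap EPHA2 in the libraries of either. Below EPHA2, the order in GFP-positive cells was EFNB1, EFNB2, EFNA1, EPHA4 and EPHB6, and each of these overlapped the next. In GFP-negative cells EFNA1 came directly after EPHA2, which it overlapped, and above EFNB1. EPHB1, EPHB2 and EPHB3 had the lowest levels, with means of at most 3.37 TPM in the GFP-positive and at most 9 TPM in the GFP-negative fraction.

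EFNA1 (ENSG00000169242; plus strand of chromosome 1, 155127460 to 155134857, in GENCODE v29 (GRCh38)) encodes ephrin-A1, a lipid-anchored ligand made by endothelium that binds EphA2. It had 34.1 and 14.6 TPM in the GFP-positive libraries, against 125 and 74.9 TPM in the GFP-negative libraries. The fractions did not overlap, and the lower GFP-negative library was still above the higher GFP-positive one. The means were 24.4 ± 13.8 TPM and 99.9 ± 35.3 TPM (SD, n = 2 each), a log2 fold change of -2.06 with a 95% interval from -3.14 to -0.99 (limma adjusted p = 0.122). With a library left out the log2 fold change ran from -2.65 to -1.48. It was -2.65 without GFP-positive replicate 1, the 1 omission with which EFNA1 passed (limma adjusted p = 0.0432); the GFP-positive fraction then held a single library, assumed to vary like the GFP-negative pair. It was -1.48 when GFP-positive replicate 2 was the library omitted (limma adjusted p = 0.160) and -1.70 when GFP-negative replicate 1 was (limma adjusted p = 0.343). EFNA1 and EPHB1 had the lowest fold changes of the 10, and which of the 2 was lower depended on the setting: with 0.1 TPM added in place of 1 TPM they were -2.11 for EFNA1 and -2.30 for EPHB1.

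The receptor gene EPHA2 gave nearly the same level in every library. It had 107 and 109 TPM in GFP-positive libraries and 104 and 118 TPM in GFP-negative libraries, with a log2 fold change of -0.03 and a 95% interval from -0.42 to 0.36 (limma adjusted p = 0.964). This interval was the narrowest of the 10 and leaves room for a difference of up to about 0.4 either way on the log2 scale. Per 100 TPM of EPHA2 there were 31.8 and 13.4 TPM of EFNA1 in GFP-positive libraries, against 120 and 63.6 TPM in GFP-negative libraries. The ratio of EFNA1 to EPHA2 was chosen after its values were seen, and it was not tested.

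EPHA4, whose receptor binds ligands of both ephrin classes, had 13 and 30.9 TPM in GFP-positive libraries and 20.1 and 25.7 TPM in GFP-negative libraries. The GFP-positive libraries lay on either side of the GFP-negative ones, and the log2 fold change of -0.17 had a 95% interval from -1.24 to 0.91 (limma adjusted p = 0.922).

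Among the ephrin-B ligands, EFNB2 (ENSG00000125266; minus strand of chromosome 13, 106489731 to 106535662, in GENCODE v29 (GRCh38)), the arterial marker, had 26.7 and 42.0 TPM in GFP-positive libraries and 46.6 and 60.8 TPM in GFP-negative libraries. The highest GFP-positive library was close below the lowest GFP-negative one. The means of 34.3 ± 10.8 TPM and 53.7 ± 10.1 TPM (SD, n = 2 each) gave a log2 fold change of -0.65, with a 95% interval from -1.36 to 0.06 (limma adjusted p = 0.394). With a library left out it ran from -0.97 (without GFP-positive replicate 2) to -0.34 (without GFP-positive replicate 1).

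EFNB1, the gene of ephrin-B1, a ligand that binds several EphB receptors, had 44.1 and 39.0 TPM in GFP-positive libraries and 65.5 and 59.5 TPM in GFP-negative libraries. The libraries of a fraction were close to each other, and the log2 fold change of -0.58 had a 95% interval from -1.06 to -0.10 (limma adjusted p = 0.279). Of the summed TPM of EFNB1, EFNB2 and EFNB3, EFNB1 held 53.4% and 44.6% in GFP-positive libraries and 50.3% and 43.8% in GFP-negative libraries. EFNB2 held 32.4% and 48.0% in GFP-positive libraries, and 35.8% and 44.8% in GFP-negative libraries. EFNB1 thus had the larger share in replicate 1 of both fractions, and EFNB2 a slightly larger one in replicate 2 of both. The 3 ephrin-B genes summed to 82.5 and 87.4 TPM in GFP-positive libraries, against 130 and 136 TPM in GFP-negative libraries.

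EPHB4 (ENSG00000196411; minus strand of chromosome 7, 100802565 to 100827521, in GENCODE v29 (GRCh38)), the venous marker, had 166 and 151 TPM in GFP-positive libraries and 282 and 190 TPM in GFP-negative libraries. The GFP-negative libraries differed more from each other than the GFP-positive ones did, and all GFP-negative values lay above all GFP-positive values. The means were 159 ± 10.5 TPM and 236 ± 65.0 TPM (SD, n = 2 each), a log2 fold change of -0.54 with a 95% interval from -1.06 to -0.02 (limma adjusted p = 0.337). Without GFP-negative replicate 1 it was -0.26, and without GFP-negative replicate 2 it was -0.83. EPHB4 held 85.2% and 90.0% of the summed TPM of the 5 EphB genes in GFP-positive libraries, and 89.7% and 88.6% in GFP-negative libraries.

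**Figure D2:**
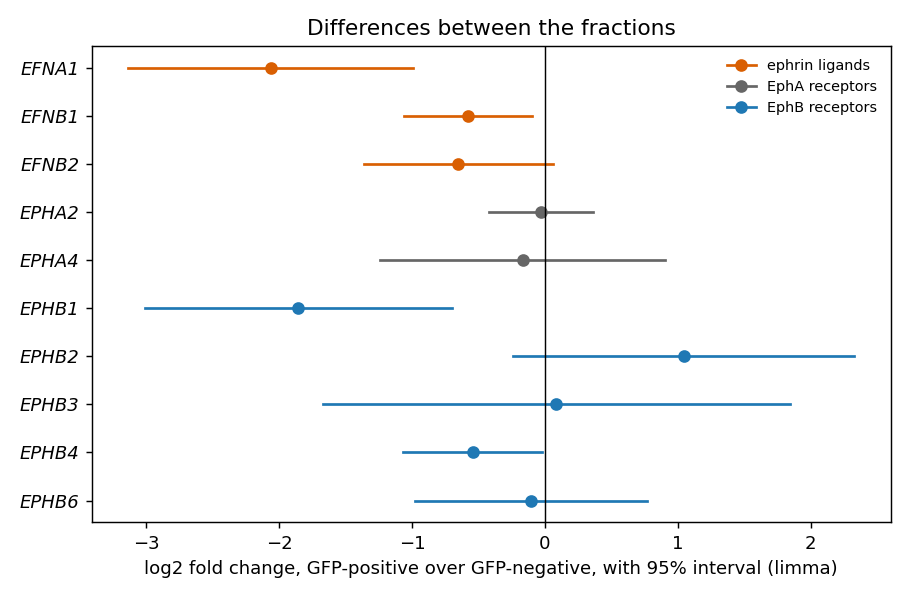
Log2 fold change of each gene, GFP-positive over GFP-negative, as points with 95% intervals from limma; orange marks ligands, grey EphA receptors and blue EphB receptors. EFNA1 at -2.06 and EPHB1 at -1.86 lie farthest below 0, EPHA2 has the narrowest interval, and EPHB2 at 1.04 lies above 0 with an interval that crosses it.

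The balance of the arterial ligand to the venous receptor gave no separation of the fractions. On the log2 scale, EFNB2 over EPHB4 (each TPM + 1) was -2.59 and -1.82 in GFP-positive libraries and -2.57 and -1.63 in GFP-negative libraries. The replicates within a fraction lay farther apart than the fractions did. The means were -2.21 ± 0.54 and -2.10 ± 0.67 (SD, n = 2 each), a difference of -0.11 (exact permutation test over samples, two-sided, p = 0.667; with 2 libraries against 2 the smallest p is 0.333). Leaving out GFP-positive replicate 1 made the difference 0.28, and leaving out GFP-negative replicate 2 made it 0.36. In both fractions replicate 2 had the higher ratio, and within each replicate number the GFP-positive library was the lower one. Leaving out 1 library therefore also changed the mix of replicate numbers between the fractions. Whether same-numbered libraries were paired is not stated.

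**Figure D3:**
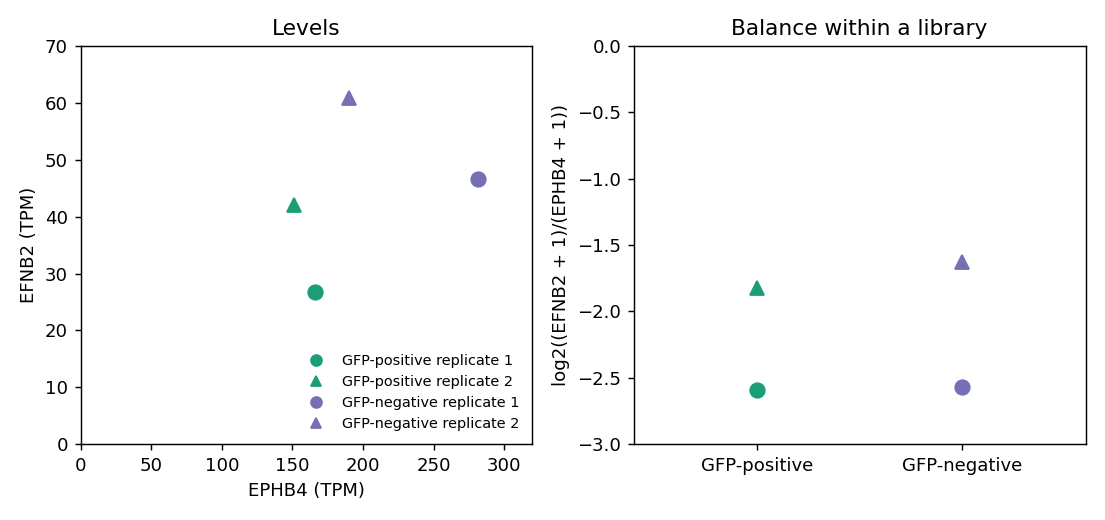
Left, EFNB2 against EPHB4 in TPM, with GFP-positive libraries in green and GFP-negative libraries in purple; right, log2 of (EFNB2 + 1) over (EPHB4 + 1) in each library. Both genes are lower in GFP-positive libraries, while the ratios of the fractions overlap, from -2.59 to -1.82 in GFP-positive and from -2.57 to -1.63 in GFP-negative libraries.

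The DNA just before the RefSeq start sites of EFNB2, EPHB4 and EPHB1 is shown because EFNB2 and EPHB4 are the arterial and venous pair and EPHB1 had the lowest fold change among the receptors. All 10 genes matched RefSeq's promoter table (GRCh38.p14). Each sequence gives the 250 bases upstream of the RefSeq start, 5′ to 3′ on the strand of the gene: chr13:106535663-106535912, minus strand, for EFNB2, chr7:100827524-100827773, minus strand, for EPHB4, and chr3:134795010-134795259, plus strand, for EPHB1. In GENCODE v29 a protein-coding transcript of each gene starts within 3 bases of its window. For EPHB1 that start is at 134795262, which lies 197461 bases inside the gene as annotated there, since other GENCODE transcripts start farther upstream. Capitals mark exact matches, on either strand, to 6 short motifs. These were GATAA for the family of the reporter's own factor, GTGGGAA for the Notch effector RBPJ, CCGGAA for factors of the ETS family, ACAAT for factors of the SOX family, CCAAT for the factor NF-Y and GGGCGG for factors of the SP family.
EFNB2: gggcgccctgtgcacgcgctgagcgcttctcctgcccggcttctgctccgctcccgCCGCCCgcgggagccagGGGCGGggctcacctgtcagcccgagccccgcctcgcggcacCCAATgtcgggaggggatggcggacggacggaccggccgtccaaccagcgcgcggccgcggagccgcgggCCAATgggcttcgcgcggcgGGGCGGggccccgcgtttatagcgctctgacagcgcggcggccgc
EPHB4: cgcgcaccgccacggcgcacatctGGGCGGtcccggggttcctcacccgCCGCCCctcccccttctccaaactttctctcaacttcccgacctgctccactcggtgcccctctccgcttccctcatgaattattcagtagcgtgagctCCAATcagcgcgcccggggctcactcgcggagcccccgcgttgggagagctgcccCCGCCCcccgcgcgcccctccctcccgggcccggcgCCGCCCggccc
EPHB1: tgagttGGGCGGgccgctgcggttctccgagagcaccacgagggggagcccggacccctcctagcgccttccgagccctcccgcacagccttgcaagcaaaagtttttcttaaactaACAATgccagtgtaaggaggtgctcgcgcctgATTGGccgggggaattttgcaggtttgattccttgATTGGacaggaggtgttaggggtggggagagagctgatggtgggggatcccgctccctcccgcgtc

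The EFNB2 window held 3 matches to GGGCGG and 2 to CCAAT, the EPHB4 window 4 and 1, and the EPHB1 window 1 and 2. GGGCGG occurs in 42.6% and CCAAT in 32.0% of all 35116 promoter windows of the same length. ACAAT was found once, in the EPHB1 window, and occurs in 24.6% of windows. The motifs of the reporter's factor family, of RBPJ and of ETS factors, which occur in 20.4%, 5.43% and 14.5% of windows, had 0 matches in these 3 windows. The EFNB2 and EPHB4 windows were richer in G and C, at 78.4% and 72.8%, than the EPHB1 window at 60.8%, and held 40 and 29 CpG dinucleotides against 15. No motif matches overlapped, and a match or its absence describes the letters of these windows only.

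The other EphB receptors were far below EPHB4. EPHB1 (ENSG00000154928; plus strand of chromosome 3, 134597801 to 135260467, in GENCODE v29 (GRCh38)), which encodes a receptor for ephrin-B ligands, had 1.43 and 2.03 TPM in GFP-positive libraries and 10.9 and 7.10 TPM in GFP-negative libraries. The fractions did not overlap. The log2 fold change of -1.86 had a 95% interval from -3.01 to -0.70 (limma adjusted p = 0.175), and it ran from -2.13 to -1.58 with a library left out. EPHB1 held 0.734% and 1.21% of the summed EphB TPM in GFP-positive libraries, against 3.47% and 3.31% in GFP-negative libraries.

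EPHB2 and EPHB3 encode receptors that, in the mouse, act together in vessel formation, and both had low levels here. EPHB2 had 3.12 and 2.24 TPM in GFP-positive libraries, against 0.510 and 1.08 TPM in GFP-negative libraries, a log2 fold change of 1.04 with a 95% interval from -0.24 to 2.33 (limma adjusted p = 0.444), and 1.69 with 0.1 TPM added. It was the member with both GFP-positive libraries above both GFP-negative ones. EPHB3 had 5.61 and 1.12 TPM in GFP-positive libraries and 3.93 and 1.52 TPM in GFP-negative libraries (log2 fold change 0.09, 95% interval from -1.67 to 1.84; limma adjusted p = 0.980). Its replicates differed more than its fractions. EPHB6, whose receptor lacks kinase activity, had 18.7 and 11.4 TPM in GFP-positive libraries and 16.9 and 14.8 TPM in GFP-negative libraries (log2 fold change -0.10, 95% interval from -0.98 to 0.77; limma adjusted p = 0.938).

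Because pan-endothelial transcripts were lower in GFP-positive cells, the 5 members with lower levels were also expressed per 100 TPM of CDH5, a ratio chosen after the values were seen and not tested. EPHB4 then stood at 50.5 and 48.1 in GFP-positive libraries, against 36.7 and 30.5 in GFP-negative libraries, so that its order was turned round. EFNB1 did likewise, with 13.4 and 12.4 in GFP-positive libraries against 8.53 and 9.55 in GFP-negative libraries. CDH5 itself had a log2 fold change of -1.10, below those of EPHB4 (-0.54) and EFNB1 (-0.58), so higher mean ratios for both follow from these values. Members with overlapping or higher levels were not divided. For EFNB2 the fractions overlapped, at 8.12 and 13.4 in GFP-positive libraries and 6.07 and 9.76 in GFP-negative libraries. EFNA1 and EPHB1 were lower on this scale too. EFNA1 stood at 10.4 and 4.64 in GFP-positive libraries, against 16.3 and 12.0 in GFP-negative libraries. EPHB1 stood at 0.435 and 0.646 in GFP-positive libraries, against 1.42 and 1.14 in GFP-negative libraries.

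The order on such a scale depended on the gene divided by. Of the 20 pan-endothelial genes, 19 had a value above 0 in every library, and each served in turn. EPHB4 was higher in both GFP-positive libraries with 11 of them, overlapped with 7 and was lower with 1, FLI1, an ETS transcription factor gene. Per 100 TPM of FLI1 it stood at 51.1 and 54.8 in GFP-positive libraries, against 70.6 and 56.6 in GFP-negative libraries. EFNB1 was higher with 14, overlapped with 2 and was lower with 3, and EFNB2 was higher with 5 and overlapped with 14. EFNA1 was lower with 14, overlapped with 4 and was higher with 1, and EPHB1 was lower with 18 and overlapped with 1. Per 100 TPM of the whole list's sum, EPHB4 overlapped, at 2.57 and 2.24 in GFP-positive libraries and 2.35 and 1.77 in GFP-negative libraries.

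**Figure D4:**
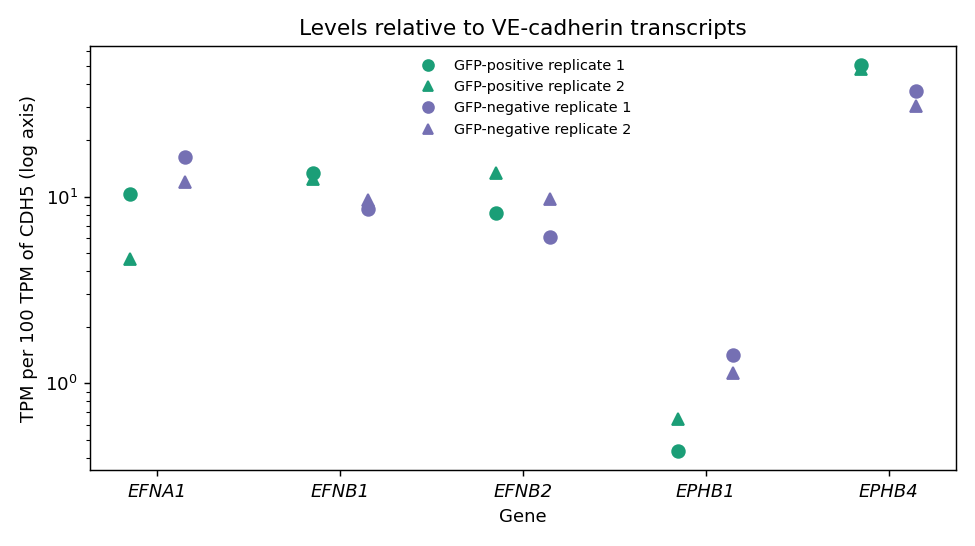
TPM of EFNA1, EFNB1, EFNB2, EPHB1 and EPHB4 per 100 TPM of CDH5 in each library, on a log axis, with GFP-positive libraries (green) left of GFP-negative libraries (purple). On this denominator EFNA1 and EPHB1 are lower in GFP-positive libraries, EFNB1 and EPHB4 are higher, and EFNB2 overlaps. Each of these genes had another order with some other pan-endothelial denominator.

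The remaining 12 human ephrin and Eph genes were mostly low. Of these, 7 passed the filter and none was called by limma at an adjusted p of 0.05 or reached an unadjusted p under 0.05; their median log2 fold change was -0.68, with 6 below 0 and 1 above. EFNB3, the remaining ephrin-B ligand gene, had 11.7 and 6.49 TPM in GFP-positive libraries and 18.1 and 15.4 TPM in GFP-negative libraries. EFNA2, a further ephrin-A ligand gene, had 5.03 and 6.25 TPM against 9.84 and 12.1 TPM, and EFNA3, another, had 8.94 and 5.05 TPM against 16.6 and 7.74 TPM. Summed over the 8 ephrin genes, ligand transcripts came to 142 and 131 TPM in GFP-positive libraries, against 310 and 247 TPM in GFP-negative libraries. The 9 EphA genes summed to 146 and 151 TPM in GFP-positive libraries and 151 and 158 TPM in GFP-negative libraries, of which EPHA2 made up 68.5% to 74.5% in every library. Ligand sums were thus separated between the fractions, and EphA sums nearly coincided.

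Of 32 tested genes through which Eph receptors act, 0 rose and 1 fell, with 10 above 0, 22 below 0 and a median log2 fold change of -0.19. Over all 15425 genes tested, 2171 had an unadjusted p under 0.05 (limma), of which 1139 were lower. The same background holds for the lists that follow. Among these 32 genes, 7 were lower and 2 were higher at that threshold. The 2 higher ones, named after their values were seen, were INPPL1 and ITSN1. INPPL1 had 139 and 222 TPM in GFP-positive libraries, against 96.4 and 94.9 TPM in GFP-negative libraries. ITSN1 had 56.9 and 88.6 TPM against 29.95 and 47.3 TPM. The gene that fell was ARHGEF15, which encodes an exchange factor that binds Eph receptors and is also abundant in endothelium. It had 16.1 and 19.2 TPM in GFP-positive libraries, against 127 and 85.2 TPM in GFP-negative libraries (log2 fold change -2.50; limma adjusted p = 0.0391). Leaving out GFP-negative replicate 1 gave an adjusted p of 0.112 (limma). GRB10, an adaptor that binds EphB1, had 75.7 and 64.8 TPM in GFP-positive libraries and 159 and 162 TPM in GFP-negative libraries (limma adjusted p = 0.0544). TIAM1, an exchange factor for the GTPase Rac, had 10.3 and 11.6 TPM against 32.6 and 19.7 TPM (limma adjusted p = 0.241).

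Partners of ephrin-B ligands in reverse signalling gave 0 called genes of 11 tested by limma, with 3 at an unadjusted p under 0.05 (1 higher and 2 lower) and a median log2 fold change of 0.22. RGS3, a regulator of G protein signalling that binds the tail of ephrin-B, had 67.7 and 48.6 TPM in GFP-positive libraries and 137 and 147 TPM in GFP-negative libraries (limma adjusted p = 0.0732). NCK2, an adaptor of ephrin-B reverse signalling, had 82.4 and 87.8 TPM against 122 and 109 TPM (limma adjusted p = 0.318). PARD3, a polarity protein gene, lay the other way, with 45.1 and 54.9 TPM against 28.99 and 27.8 TPM (limma adjusted p = 0.207).

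Of 13 tested proteases that act on ephrins or Eph receptors, limma called 0, and 3 had an unadjusted p under 0.05, all lower in GFP-positive cells. ADAM12, a membrane metalloprotease gene, had 5.17 and 4.59 TPM in GFP-positive libraries and 37.8 and 25.2 TPM in GFP-negative libraries (limma adjusted p = 0.0604). MMP14, the gene of a membrane-bound matrix metalloprotease, had 228 and 306 TPM against 488 and 517 TPM (limma adjusted p = 0.0971), and MMP9, a secreted one, had 17.9 and 31.1 TPM against 39.4 and 52.8 TPM (limma adjusted p = 0.300). ADAM10, a protease that cleaves ephrins and was chosen after its values were seen, had 138 and 150 TPM against 134 and 190 TPM.

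Other arterial and venous genes were lower in GFP-positive cells by their medians, and the venous median depended on general endothelial genes counted among them. Of 24 arterial genes tested, 0 rose and 1 fell, with 19 below 0, 5 above 0 and a median log2 fold change of -0.66. At an unadjusted p under 0.05 (limma), 14 arterial genes were lower and 3 were higher. The 3 higher ones, named after their values were seen, were the connexin gene GJA5, GATA6 and IGFBP3. Both GFP-positive libraries were above both GFP-negative ones for each, with log2 fold changes of 0.97, 0.77 and 1.10. SOX7, a transcription factor gene of endothelium, was the gene that fell, with 71.5 and 72.5 TPM in GFP-positive libraries, against 202 and 184 TPM in GFP-negative libraries (limma adjusted p = 0.0391, and from 0.0541 to 0.130 with any library left out). Of 12 venous genes tested, 0 rose and 1 fell, with 8 below 0, 4 above 0 and a median of -0.77. At an unadjusted p under 0.05 (limma), 7 venous genes were lower and 0 were higher. Of these 12, 3 (TEK, VWF and EMCN) also stood on the pan-endothelial list. The other 9, a split made after the values were seen, had a median of -0.04, the value of NRP2, with 5 below 0 and 4 above 0. The 4 above 0 (NR2F1, SELP, ACKR1 and PROX1) had group means of at most 12.1 TPM, and none of them had an unadjusted p under 0.05 (limma). Besides the gene that fell, these 9 included NT5E, NR2F2 and APLNR, each lower at an unadjusted p under 0.05 (limma). Their log2 fold changes were -3.17, -1.83 and -0.75. The arterial list shared no gene with the pan-endothelial list, so the same split would leave its median unchanged. FLT4, the gene of a receptor for vascular endothelial growth factor, was the venous gene that fell, with 104 and 111 TPM against 347 and 340 TPM (limma adjusted p = 0.0316). It had an adjusted p of 0.0641 (limma) when GFP-negative replicate 1 was left out. For the venous genes EMCN and NT5E and the arterial genes SOX17 and FOXC2, both GFP-positive libraries were lower, with limma adjusted p-values of 0.0519, 0.0580, 0.0666 and 0.148, so none passed.

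**Figure D5:**
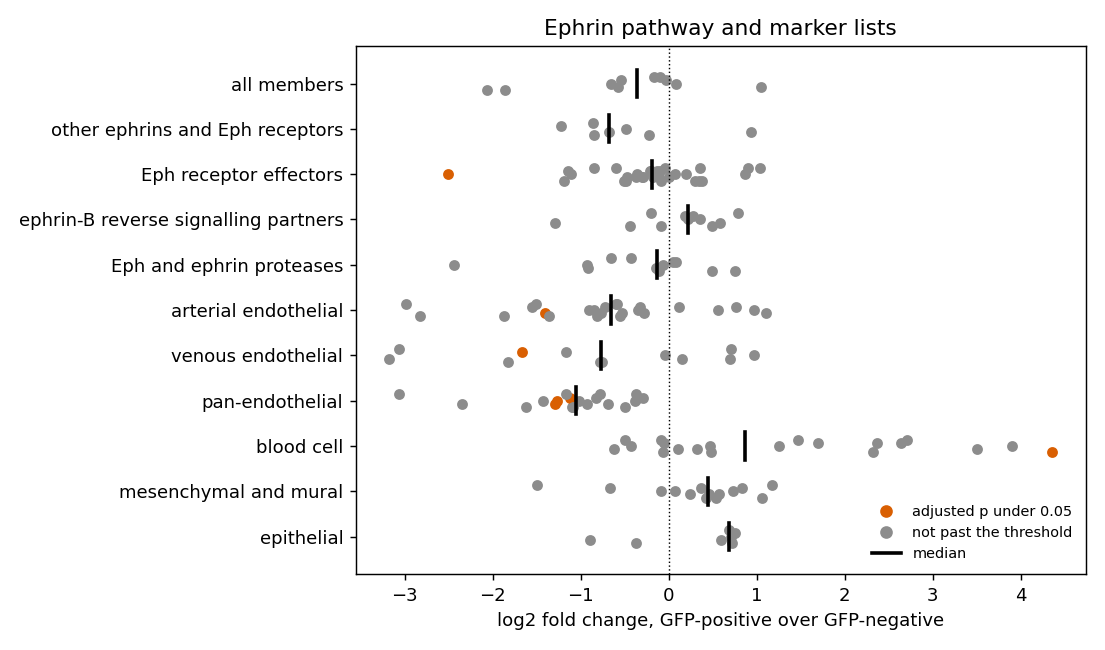
Log2 fold change, GFP-positive over GFP-negative, of each tested gene in the ephrin and Eph lists and the marker lists; points are genes, orange past an adjusted p of 0.05, and black bars are medians. The 10 members have a median of -0.35, between the ephrin-B partners at 0.22 and the arterial, venous and pan-endothelial lists at -0.66, -0.77 and -1.06; the venous list shares 3 genes with the pan-endothelial list.

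Profiles over the 4 libraries were compared with 53 arterial, venous and pan-endothelial genes by the Euclidean distance between log2(TPM + 1) values centred on each gene's mean. EFNB2 was nearest to JAG1, a Notch ligand gene, at a distance of 0.13, with 24.0 and 37.8 TPM in GFP-positive libraries and 37.8 and 51.2 TPM in GFP-negative libraries. SOX18, an endothelial transcription factor gene, followed at 0.28. EPHB4 was nearest to NOTCH1, a Notch receptor gene, at 0.25, with 66.4 and 69.5 TPM in GFP-positive libraries and 129 and 97.8 TPM in GFP-negative libraries, and then to the connexin gene GJA4 at 0.30. These 4 nearest genes all stood on the arterial list, which held 24 of the 53 genes searched, against 12 on the venous list, and with 4 libraries such distances describe these libraries only.

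Markers of other cell types also had different summed levels in the fractions. Mesenchymal and mural genes summed to 2753 and 2782 TPM in GFP-positive libraries, against 1784 and 1954 TPM in GFP-negative libraries, with 11 of 14 above 0. The largest part was RGS5, a gene of pericytes named after its values were seen, with 1227 and 1160 TPM in GFP-positive libraries and 1046 and 975 TPM in GFP-negative libraries (log2 fold change 0.24; limma unadjusted p = 0.0812). TAGLN had 802 and 865 TPM against 396 and 547 TPM, and COL1A1 and COL3A1 had higher values in both GFP-positive libraries too. Epithelial genes summed to 1736 and 1487 TPM against 886 and 1076 TPM, mostly from the keratin genes KRT8 and KRT18, which other cell types also express. None of the tested genes of these 2 lists passed (limma), and 4 mesenchymal and mural genes and 3 epithelial genes had an unadjusted p under 0.05. Neural genes summed to 333 and 446 TPM against 352 and 473 TPM, and pluripotency genes to 710 and 582 TPM against 502 and 474 TPM. Of 3 neural and 6 pluripotency genes tested, limma called 0, and 0 and 2 had an unadjusted p under 0.05. The 2 pluripotency genes went opposite ways. LIN28A, which made up most of that sum, had 477 and 386 TPM in GFP-positive libraries against 304 and 287 TPM in GFP-negative libraries, and POU5F1, named after its values were seen, had 0.930 and 0.0300 TPM against 9.68 and 5.88 TPM. The part of these cell types in the levels of EPHA2 and EPHB2 was not tested.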

How the data were processed

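Per the labels' protocols, Trizol was used to extract RNA and an Illumina TruSeq kit to prepare sequencing libraries. The submitters' processing notes name Bowtie, RSEM, hg19 and mm10, with neither tool versions nor the use of each build. The annotation is not given in the sources used here. The authors deposited 1 table of TPM values for each library; the headers name no unit, which was read from the sums of 996323.64 to 997292.9 per library. The titles of the samples gave each library's group and replicate number.

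Limma 3.58.1 in R 4.3.3 was run on log2(TPM + 1) with a variance trend, over genes that reached 1 TPM in 2 or more of the 4 libraries. Two-sided p-values were corrected by the Benjamini-Hochberg method over all 15425 genes, and 0.05 was the threshold. The procedure was tested on simulated data, where it recovered 29.1%, 88% and 99.2% of changed genes at log2 fold changes of 1, 2 and 3. Smaller changes, and changes of genes below about 10 TPM, were not simulated. Members and lists were chosen with earlier results of these data known. Genes named from a list are those past the threshold, filled up to 3 by the largest fold change among genes with a group mean of at least 10 TPM; others were chosen after their values were seen. Gene coordinates came from GENCODE v29 on GRCh38, by Ensembl identifier, and promoter sequences from RefSeq (GRCh38.p14). Alternatives were another pseudocount, other filters, upper quartile scaling, no variance trend, a replicate block and each library left out.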

Additional observations from a re-analysis of the deposited data

How the results depend on the processing

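No member was called by limma with 0.1 TPM added, with no filter beyond a value above 0, with a mean above 5 TPM (where EPHB2 and EPHB3 were not tested), with upper quartile scaling or without a variance trend, and members kept their sign under these. All genes called numbered 0 with 0.1 TPM added, 0 with no filter and 0 with no trend in limma (2101, 2230 and 2072 genes had an unadjusted p under 0.05), and 164 with a mean above 5 TPM, against 69. With a library left out they numbered 18 to 65. The replicate block called 596 genes and 1 member, EFNA1 (limma adjusted p = 0.00159). Deviations of same-numbered libraries were nearly uncorrelated across 15425 genes (r = 0.07). The labels do not say whether same-numbered libraries were paired, and a low correlation over all genes cannot settle it. Why the block called more genes was not tested. With a library left out, 0 to 1 members were called, EFNA1 without GFP-positive replicate 1, and log2 fold changes ran from -0.76 to 0.43 for EPHA4, -0.73 to 0.91 for EPHB3, -0.44 to 0.23 for EPHB6 and -0.12 to 0.061 for EPHA2, on both sides of 0. The difference in EFNB2 to EPHB4 balance ran from -0.58 to 0.36. Read depth is unknown, so the precision of EPHB1, EPHB2 and EPHB3 at a few TPM cannot be given.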
